A study of Mus musculus with 8 samples.

Results

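The genes described are 10 growth factor receptor tyrosine kinases that are active in prostate and other carcinomas, *Egfr*, *Erbb2*, *Erbb3*, *Met*, *Igf1r*, *Fgfr1*, *Fgfr2*, *Pdgfra*, *Pdgfrb* and *Axl*. They were chosen by name and read from the tables of 39089 genes by their symbols, and all 10 were found. The filter on low counts kept 13921 genes for testing, among them 8 of the 10 receptors, and *Fgfr1* and *Pdgfrb* did not pass it. The samples were epithelial cells (EpCAM-positive, CD45-negative) sorted from subcutaneous tumors of Myc-CaP, mouse prostate cancer cells with a *Myc* transgene, grown in male FVB hosts that were 6 weeks old at inoculation according to the labels. The study compared tumors of cells with a control vector (WT) and of cells expressing a guide RNA against *Arid1a*, whose product is part of the SWI/SNF chromatin remodeler (*Arid1a* KO). From day 16, mice of each genotype received by daily gavage for 2 weeks either JSH-23 or the corn oil vehicle. JSH-23, an inhibitor of the nuclear entry of the NF-κB subunit p65, was diluted in corn oil from DMSO. The study's figure names the groups without JSH-23 DMSO. Each of the 4 groups had 2 samples. The sources used here do not say whether the KO cells were a pool or 1 clone, or how tumors were assigned to samples, so p-values measure only the spread between these samples, which may be technical.

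A receptor tyrosine kinase binds a growth factor outside the cell, pairs with a second receptor and phosphorylates tyrosines on its partner, which then recruit adaptors that switch on RAS, ERK and PI3K signaling. The ErbB receptors EGFR, ERBB2 and ERBB3 work as pairs: ERBB2 has no known ligand and ERBB3 has little kinase activity of its own. MET is the receptor of hepatocyte growth factor (HGF), IGF1R binds insulin-like growth factors, and AXL, a receptor of the TAM family, binds GAS6. FGFR2 is typical of epithelium, where it receives growth factors made by stroma, whereas PDGFRA and PDGFRB are best known from fibroblasts and pericytes.

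Total counts ranged from 16401581 to 21972231 per sample, and the common biological coefficient of variation, the spread between samples of a group beyond counting error, was 1.61%. At these depths 3 counts, taken as the lowest level told from 0, corresponded to 0.144 to 0.182 CPM (counts scaled to library size and by TMM); such limits cover counting error only. *Arid1a* transcripts fell by 34.2% in KO tumors with vehicle and by 36.6% with JSH-23, and the markers of the sorted cells were found in part. *Epcam*, the gene of the sorted antigen, had 0 to 4 counts in the 8 samples, although *Krt8* had 540 to 2308 counts. The summed level of 7 epithelial markers was 152 to 168 TPM (counts per gene length, scaled to a common sum) in WT and 354 to 360 TPM in KO tumors with vehicle, and 77.1 to 78.1 TPM in WT and 253 to 262 TPM in KO tumors with JSH-23. *Krt8* and *Krt19* gave most of it, with means of 77.5 and 69.2 TPM in WT and 157 and 184 TPM in KO tumors with vehicle. *Cdh1* had 1 to 19 counts, *Krt18* 4 to 18 and *Cldn7* 0 to 5, so the sum does not speak for the whole list. Of the 8 leukocyte markers 3 passed the filter, *Adgre1* and *Itgam* only through WT samples. They moved in opposite directions in KO tumors with vehicle, *Cd68* higher and *Adgre1* and *Itgam* lower. The list summed to at most 37.9 TPM, of which *Cd68* alone gave 37.2, and *Ptprc*, the gene of CD45, had 0 to 10 counts. The 8 fibroblast markers summed to 2.59 to 5.49 TPM over all samples, with *Fap* at 0 in all 8.

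For 7 of the 10 receptors, the 250 bases upstream of 1 transcript start were read from RefSeq (GRCm38.p6). That start is not always the outer end of the gene as the files give it, and the windows of *Met* and *Pdgfra* lay wholly inside the gene, as did 191 of the 250 bases for *Axl*. The windows of *Axl*, *Met* and *Erbb2* are shown. They belong to 3 of the 4 receptors that passed the test both between genotypes with vehicle and between treatments in KO tumors, the other being *Igf1r*, and on the CPM scale *Axl* and *Met* moved in the same directions and *Erbb2* did not. Both strands were searched for the GC box GGGCGG, the AP-1 motif TGANTCA and the TATA motif TATAAA, and matches are in capitals.
Axl, chr7:25788734-25788983, minus strand: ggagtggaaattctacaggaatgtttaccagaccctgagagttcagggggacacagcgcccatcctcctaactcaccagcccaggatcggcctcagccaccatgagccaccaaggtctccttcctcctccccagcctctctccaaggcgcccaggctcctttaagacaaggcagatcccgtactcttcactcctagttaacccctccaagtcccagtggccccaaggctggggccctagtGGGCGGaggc
Met, chr6:17463707-17463956, plus strand: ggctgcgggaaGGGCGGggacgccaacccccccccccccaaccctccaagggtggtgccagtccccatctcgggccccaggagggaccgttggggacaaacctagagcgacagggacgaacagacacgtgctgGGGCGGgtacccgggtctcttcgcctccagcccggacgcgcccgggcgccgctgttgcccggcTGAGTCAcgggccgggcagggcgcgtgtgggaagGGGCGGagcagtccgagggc
Erbb2, chr11:98412234-98412483, plus strand: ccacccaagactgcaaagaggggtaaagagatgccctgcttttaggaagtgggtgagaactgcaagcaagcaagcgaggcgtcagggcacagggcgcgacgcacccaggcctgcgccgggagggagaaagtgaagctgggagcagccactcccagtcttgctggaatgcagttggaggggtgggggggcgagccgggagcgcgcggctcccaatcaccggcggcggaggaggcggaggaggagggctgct
The *Axl* window held 1 GC box, the *Met* window 3 GC boxes and 1 AP-1 match, and the *Erbb2* window no match. Of the other windows read, *Igf1r* held 2 GC boxes, *Egfr* 1, and *Fgfr2* and *Pdgfra* none. Of all 32851 windows of the same length, 32.7% held a GC box, 6.75% an AP-1 match and 12.4% a TATA match. No TATA match lay in the 7 receptor windows. G and C made up 60.0% of the *Axl* window, 74.0% of the *Met* window and 66.0% of the *Erbb2* window, against a median of 52.4% over all windows. A match is a run of letters and not a measured binding site.

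Among the 10 receptors, *Axl* was the most abundant per gene length, with a mean of 140 TPM over the 8 samples and a range of 83.3 to 192, and it ranked first in all 4 groups. *Met* followed at a mean of 61.5 TPM and *Igf1r* at 44.0 TPM, and the ranges of these 3 receptors over the 8 samples did not overlap. *Erbb3* had a mean of 31.9 TPM, *Erbb2* 28.5 TPM and *Fgfr2* 19.0 TPM. Over the 8 samples *Erbb3* ranged from 25.2 to 36.4 TPM, *Erbb2* from 18.6 to 41.2 and *Fgfr2* from 17.5 to 21.8. These ranges overlapped between neighbors, but *Erbb2* exceeded *Fgfr2* within each of the 8 samples. By group mean *Erbb2* stood above *Erbb3* in WT tumors with vehicle and below it in the other 3 groups. *Pdgfra* had a mean of 14.1 TPM (9.02 to 17.1) and *Egfr* 3.66 TPM (3.28 to 3.98), each apart from its neighbors. *Fgfr1* had 2 to 10 counts and *Pdgfrb* 0 to 6 counts per sample. Both had samples under the 3 counts taken as the lowest level told from 0, overlapped each other and were not compared between groups. The TPM of the 10 receptors summed with vehicle to 383 and 386 in WT and 280 and 283 in KO tumors, and with JSH-23 to 404 and 409 in WT and 298 and 301 in KO tumors. Without *Axl* the sums were 227 and 228, 197 and 197, 217 and 219, and 169 and 171 in the same order of groups. *Axl* made up 41.0% and 40.9% of the sum in vehicle-treated WT and 29.8% and 30.7% in vehicle-treated KO tumors, against 43.1% to 47.0% with JSH-23 in both genotypes.

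**Figure D1:**
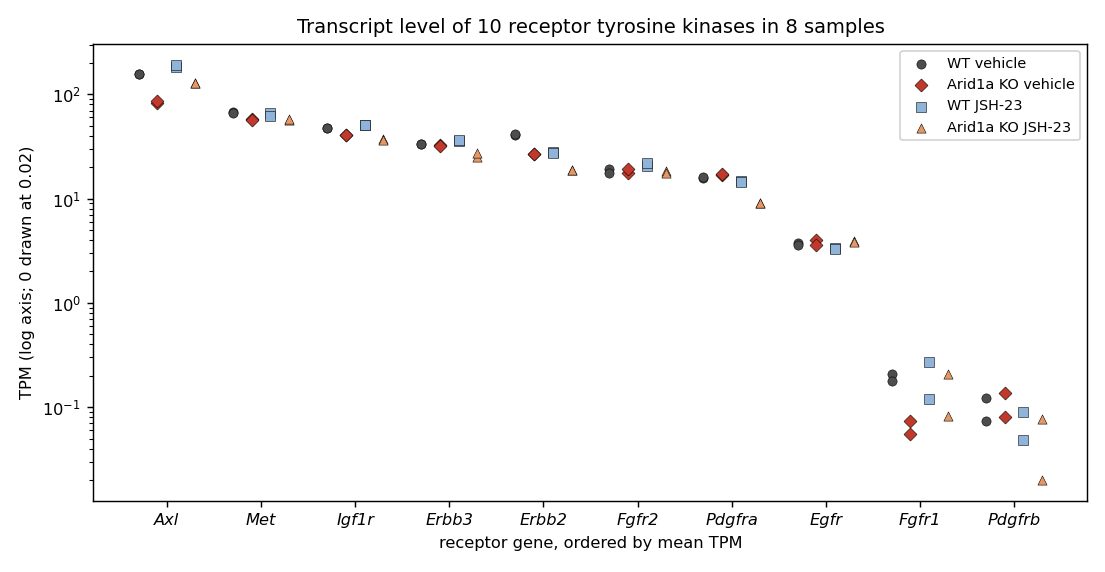
Deposited TPM (log axis) of the 10 receptors in each of the 8 samples, with the receptors ordered by their mean and the symbols giving the group. *Axl* lay between 83.3 and 192 TPM, 7 further receptors between 3.28 and 67.2 TPM, and *Fgfr1* and *Pdgfrb* at 0.273 TPM or less.

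Ligand genes were read in the same cells to see which receptors had a matching ligand transcript. No *Hgf* read was counted in any of the 8 samples, beside *Met* at 56.6 to 67.2 TPM. *Igf1* had 0 to 3 counts and *Igf2* 0 to 4, beside *Igf1r* at 36.4 to 51.1 TPM. *Gas6* had 2 to 11 counts and *Pros1*, the other TAM ligand of the list, 0 to 11, although *Axl* was the most abundant receptor. The neuregulin genes *Nrg1* and *Nrg2*, whose products bind ERBB3, had 0 to 2 counts. *Nrg3* and *Nrg4*, known as ligands of ERBB4, had 0 counts in all samples and 8 to 29, and *Erbb4* itself had 0 in all samples. Of the ligands of EGFR, 3 stood above the receptor itself: betacellulin (*Btc*) had a mean of 28.1 TPM, *Hbegf* 15.0 TPM and *Tgfa* 9.34 TPM, against 3.66 TPM for *Egfr*, and *Egf* had 1.27 TPM. *Areg* had 0 to 3 counts, *Ereg* 0 to 1 and *Epgn* 0 to 2. *Fgf7*, known as a stromal ligand of the epithelial form of FGFR2, had 17.7 TPM and *Fgf1* 14.2 TPM, close to the 19.0 TPM of *Fgfr2*. *Pdgfc* had 11.8 TPM beside 14.1 TPM of *Pdgfra*, whereas *Pdgfa* had 0 to 7 counts and *Pdgfb* 8 to 37. Counts per gene do not tell splice forms of a receptor apart.

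**Figure D2:**
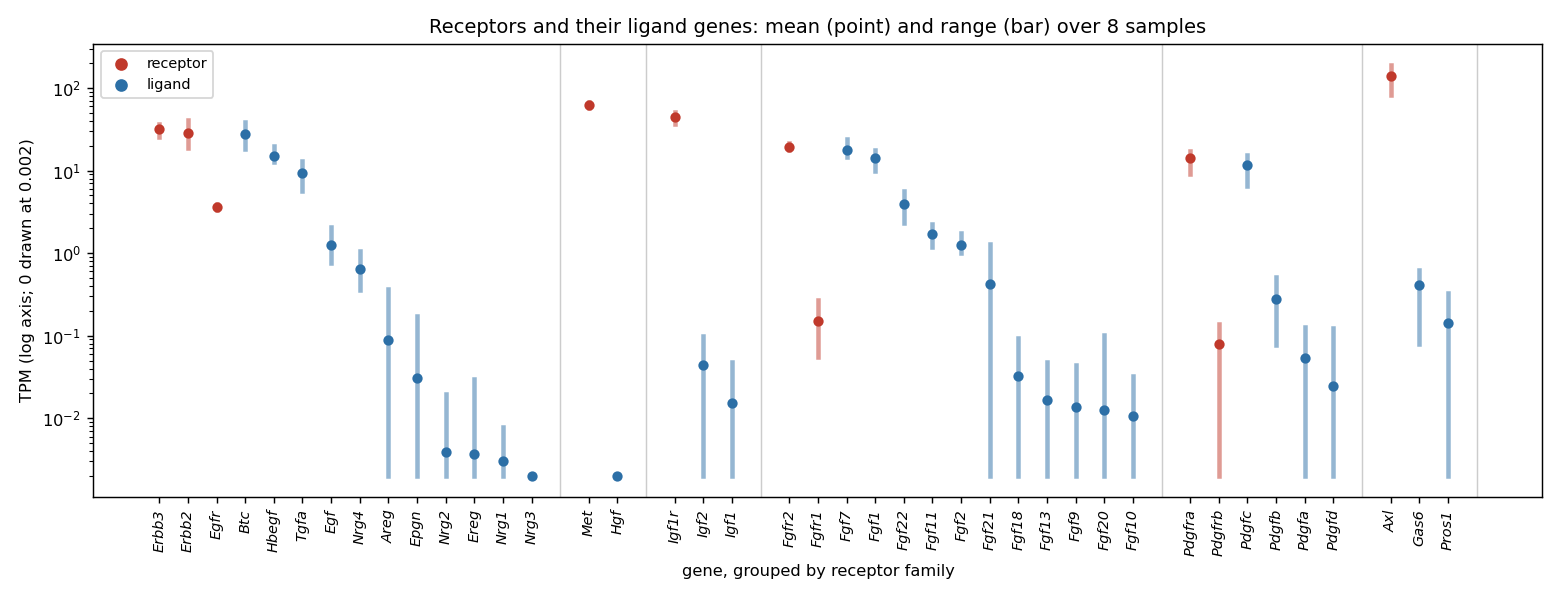
TPM (log axis) of each receptor (red) and the ligand genes of its family (blue), as the mean (point) and range (bar) over the 8 samples, with values of 0 drawn at 0.002. Ligand genes reached a mean of at least 9.34 TPM for the families of *Egfr*, *Fgfr2* and *Pdgfra*, while *Hgf*, *Igf1*, *Igf2*, *Gas6* and *Pros1* all stayed at 11 counts or fewer per sample.

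Among the receptors, *Axl* had the largest fold change between the genotypes with vehicle and between treatments in KO tumors. It lies at chr7:25756500-25788924 on the minus strand (GRCm38/mm10, as the files give it). With vehicle it stood at 332 and 327 CPM in WT and 174 and 181 CPM in KO tumors, and with JSH-23 at 397 and 414 CPM in WT and 314 and 320 CPM in KO tumors. The KO samples with vehicle lay far below all 6 others, and no groups overlapped. In edgeR's quasi-likelihood test, with p adjusted by Benjamini-Hochberg over the 13921 genes, *Axl* was downregulated by 46.1% in KO tumors with vehicle (log2 fold change -0.89, 95% interval -0.95 to -0.84, adjusted p = 8.47e-41). JSH-23 raised it 1.79-fold in KO tumors (log2 0.84, 0.78 to 0.89, adjusted p = 5.16e-40) and 1.23-fold in WT tumors (log2 0.30, 0.25 to 0.35, adjusted p = 1.04e-17). The 2 responses differed by 0.54 on the log2 scale (interaction, 0.47 to 0.61, adjusted p = 3.94e-21), and with JSH-23 the KO tumors remained 21.8% below WT. In bulk samples, fewer cells that express a gene and less RNA of it per cell cannot be told apart. Macrophages can express *Axl*, and 3 genes known from macrophages were, like *Axl*, lower in KO than in WT tumors with vehicle. *Adgre1* had 17 and 19 counts in WT and 0 and 0 in KO tumors, *Itgam* 10 and 15 against 0 and 0, and *Csf1r* 21 and 24 against 2 and 6. These 3 genes passed the low-count filter only through WT samples, so no p-value is given for them. *Cd68* was higher, at 301 and 378 counts in KO against 110 and 127 in WT tumors (adjusted p = 4.95e-15). In KO tumors with JSH-23, where *Axl* was higher than with vehicle, *Adgre1* had 0 and 2 counts, *Itgam* 1 and 0 and *Csf1r* 1 and 4. In WT tumors with JSH-23, where *Axl* was highest, the means of these 3 genes were below those in WT tumors with vehicle. *Csf1r* averaged 0.449 against 1.33 CPM, *Adgre1* 0.505 against 1.06 and *Itgam* 0.335 against 0.738. The 2 WT samples with JSH-23 differed widely for *Adgre1* and *Itgam*, with standard deviations of 0.628 and 0.474 CPM. The part of macrophages in the values of *Axl* was not tested.

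Among the ErbB receptors, *Erbb2* fell with *Arid1a* KO and with JSH-23. *Erbb2* (chr11:98412484-98437716, plus strand) stood at 81.0 and 81.6 CPM in WT tumors and 53.0 and 52.6 in KO tumors with vehicle, and at 57.5 and 55.3 in WT tumors and 43.2 and 43.5 in KO tumors with JSH-23. WT tumors with vehicle were the highest and KO tumors with JSH-23 the lowest, without overlap. The loss in KO tumors was 35.1% with vehicle (log2 -0.62, -0.72 to -0.52, adjusted p = 9.2e-18) and 23.3% with JSH-23 (adjusted p = 1.4e-08). JSH-23 lowered *Erbb2* by 30.5% in WT tumors (adjusted p = 1.66e-14) and by 17.9% in KO tumors (adjusted p = 4.69e-06). The interaction was 0.24 (0.09 to 0.39, adjusted p = 0.00663), and this call was lost in DESeq2 (adjusted p = 0.0543), without TMM scaling (0.135) and on TPM values (0.511).

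*Erbb3*, the partner that carries most of the docking sites for PI3K, moved less. It stood at 78.7 and 78.5 CPM in WT tumors and 77.6 and 74.9 in KO tumors with vehicle, and at 87.3 and 89.1 in WT tumors and 70.1 and 77.1 in KO tumors with JSH-23. The WT samples with JSH-23 were the highest, and the KO samples with JSH-23 spread the most. The genotypes with vehicle differed by -0.05 on the log2 scale (-0.14 to 0.05, adjusted p = 0.434), and JSH-23 raised *Erbb3* by 12.1% in WT tumors (adjusted p = 0.00164), a call lost on TPM values (0.0703). In KO tumors its change of -0.05 with JSH-23 was not called (adjusted p = 0.363), and on TPM values it was (-0.28, 0.00141). With JSH-23, *Erbb3* was 16.3% lower in KO than in WT tumors (adjusted p = 1.73e-06). Its interaction of -0.21 (adjusted p = 0.00609) was lost in DESeq2 (0.0692) and without the first KO sample with JSH-23, where it was -0.14 (0.125).

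*Egfr*, the lowest of the 8 receptors tested, had 9.62 and 9.12 CPM in WT tumors and 10.1 and 9.20 in KO tumors with vehicle, and 8.88 and 8.63 in WT tumors and 11.6 and 11.5 in KO tumors with JSH-23. Those KO samples with JSH-23 were the highest, while the genotypes overlapped with vehicle. The difference with vehicle was 0.04 on the log2 scale (-0.21 to 0.29, adjusted p = 0.815). With JSH-23, *Egfr* was upregulated 1.32-fold in KO against WT tumors (log2 0.40, 0.16 to 0.64, adjusted p = 0.00476 in edgeR, 0.0603 in DESeq2 and 0.145 on TPM values). In WT tumors its change with JSH-23 was -0.10 (-0.35 to 0.16, adjusted p = 0.544). In KO tumors the change was 1.20-fold (adjusted p = 0.0423), a call lost in DESeq2 (0.179), with no filter on low counts (0.0693) or a stricter one (0.0692), without TMM scaling (0.262), on TPM values (0.873) and when the second KO sample with vehicle (0.238) or either KO sample with JSH-23 (0.0866 and 0.0695) was left out. The interaction of 0.36 missed the threshold (0.01 to 0.70, adjusted p = 0.0985).

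*Met* was lowest in KO tumors with vehicle. *Met* (chr6:17463349-17573980, plus strand) stood at 184 and 183 CPM in WT tumors and 157 and 155 in KO tumors with vehicle, and at 185 and 176 in WT tumors and 181 and 187 in KO tumors with JSH-23. The other 3 groups overlapped. *Met* was downregulated by 14.8% in KO tumors with vehicle (log2 -0.23, -0.29 to -0.17, adjusted p = 2.62e-09) and differed by 0.03 between the genotypes with JSH-23 (-0.03 to 0.09, adjusted p = 0.427), a difference that reversed to -0.16 on TPM values (0.00634). In KO tumors JSH-23 raised it by 18.1% on the CPM scale (adjusted p = 2.06e-10), but on the TPM scale the same samples read 57.8 and 57.0 with vehicle and 56.6 and 58.2 with JSH-23, and the change was 0.00 on the log2 scale (0.987). In WT tumors the change with JSH-23 was -0.02 (-0.08 to 0.04, adjusted p = 0.567). The interaction of 0.26 (adjusted p = 8.63e-07) was likewise lost on TPM values (0.329).

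*Igf1r* was lower in KO tumors under both treatments. *Igf1r* (chr7:67952257-68233668, plus strand) stood at 235 and 235 CPM in WT tumors and 199.8 and 201 in KO tumors with vehicle, and at 256 and 260 in WT tumors and 216 and 212 in KO tumors with JSH-23. Each KO group lay below both WT groups, and *Igf1r* was 14.6% lower in KO than in WT tumors with vehicle (adjusted p = 5.1e-11) and 17.0% lower with JSH-23 (adjusted p = 5.94e-14). JSH-23 raised it by 9.74% in WT tumors (adjusted p = 1.57e-05). In KO tumors the rise of 6.66% (log2 0.09, adjusted p = 0.00189) reversed to -0.02 without TMM scaling and to -0.14 on TPM values (0.00537), so its direction depended on the scaling. The interaction of -0.04 was not called (adjusted p = 0.422), but was on TPM values (-0.23, 0.00558).

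*Fgfr2*, the one FGF receptor of the list above the low-count filter, rose with JSH-23. It stood at 41.0 and 37.3 CPM in WT tumors and 37.3 and 40.7 in KO tumors with vehicle, and at 45.1 and 47.7 in WT tumors and 45.2 and 43.8 in KO tumors with JSH-23. The genotypes overlapped under both treatments, and the differences between them were -0.00 with vehicle (-0.13 to 0.13, adjusted p = 0.99) and -0.06 with JSH-23 (-0.18 to 0.06, adjusted p = 0.464), the second of which passed on TPM values (-0.24, 0.0202). JSH-23 raised *Fgfr2* by 18.3% in WT tumors (adjusted p = 0.00102), a call that ended without the second WT sample with vehicle (0.0538). In KO tumors the rise of 13.7% (adjusted p = 0.00688) ended in DESeq2 (0.0508) and without the first KO sample with vehicle (0.127), and it turned to -0.05 on TPM values (0.578).

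*Pdgfra* fell in KO tumors given JSH-23. *Pdgfra* (chr5:75151322-75198206, plus strand) stood at 56.5 and 58.0 CPM in WT tumors and 60.2 and 61.3 in KO tumors with vehicle, and at 54.2 and 53.3 in WT tumors and 38.0 and 38.5 in KO tumors with JSH-23. The last group lay below all other samples. JSH-23 lowered *Pdgfra* by 37.0% in KO tumors (log2 -0.67, -0.78 to -0.56, adjusted p = 1.83e-17), while the change in WT tumors was -0.09 (-0.20 to 0.02, adjusted p = 0.151). The responses differed by -0.58 (-0.73 to -0.42, adjusted p = 5.15e-09). With vehicle the genotypes differed by 0.09 (-0.02 to 0.19, adjusted p = 0.176), and with JSH-23 *Pdgfra* was 28.8% lower in KO tumors (adjusted p = 3.7e-11). Fibroblast markers summed to 2.88 to 3.64 TPM in KO tumors with JSH-23 and 3.73 to 3.77 TPM in KO tumors with vehicle, and pericyte and smooth muscle markers to 2.12 to 7.57 TPM and 6.95 to 10.2 TPM. Between these groups 0 of the 5 fibroblast markers tested were called, and of the 6 pericyte and smooth muscle markers tested 1 was lower and 0 higher. Of all genes 34.4% were lower and 33.4% higher. Apart from *Notch3*, the markers tested averaged at most 46 counts in KO tumors with vehicle, so a missing call says little about such cells. *Pdgfrb* had 0 and 4 counts against 6 and 4, and the part of such cells in the fall of *Pdgfra* was not tested.

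**Figure D3:**
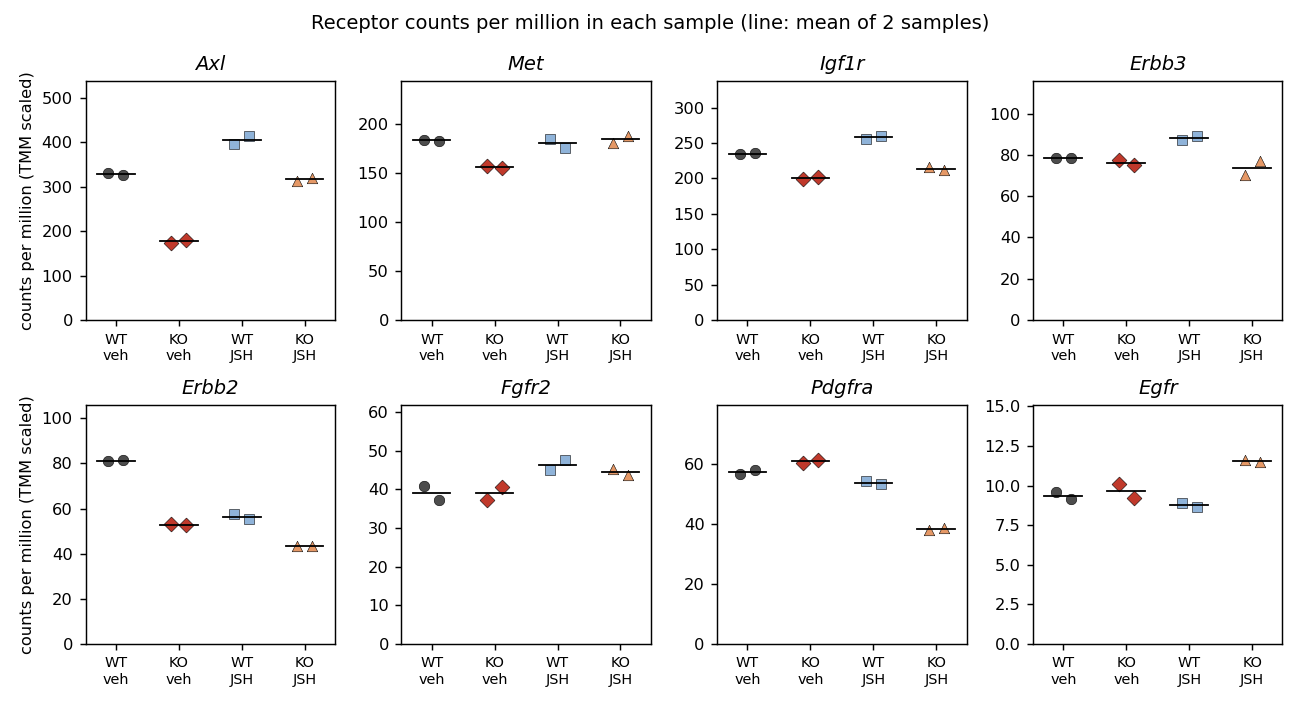
CPM (TMM scaled, each axis from 0) of the 8 receptors tested, with 1 symbol per sample, 2 samples per group and a line at the group mean (veh, vehicle). *Axl* dropped to 174 and 181 CPM in KO tumors with vehicle, *Erbb2* fell from 81.0 and 81.6 CPM to 43.2 and 43.5 CPM across the groups, and *Pdgfra* was at 38.0 and 38.5 CPM in KO tumors with JSH-23 alone.

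Counted over the list, *Arid1a* KO with vehicle lowered 4 of the 8 receptors tested (*Axl*, *Erbb2*, *Met* and *Igf1r*) against 25.5% of all genes tested, and raised 0, against 25.0% (7.48% by 1.5-fold). The count of 0 was the same at an unadjusted p under 0.05 in edgeR, in DESeq2 and in limma on TPM values. With the study's 1.5-fold threshold added, 2 were lowered (*Axl* and *Erbb2*), against 5.16% of all genes. The median log2 fold change of the 8 receptors was -0.14, beside 0.00 over all genes. These were 4 receptors of different families, and their losses ranged from 14.6% to 46.1%. When every gene was given a coefficient of variation of 0.1, the calls of *Axl* and *Erbb2* remained and those of *Met* (adjusted p = 0.283) and *Igf1r* (0.286) did not.

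With JSH-23, the KO tumors had 5 receptors lower than WT tumors (*Axl*, *Erbb2*, *Erbb3*, *Igf1r* and *Pdgfra*), against 23.8% of all genes, and 1 higher (*Egfr*), against 23.2%. The median was -0.26, beside -0.01 over all genes. None passed 1.5-fold in edgeR, by adjusted or unadjusted p, or in DESeq2, and 1 did, lower, in limma on TPM values (all genes in edgeR, 3.74% higher and 4.97% lower). Only *Pdgfra* kept its call at a coefficient of variation of 0.1 (adjusted p = 0.0155). Over all genes the split was 3229 higher and 3307 lower, 2353 and 4496 without TMM scaling, and 1252 and 5793 in limma on log2(TPM + 1).

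In KO tumors JSH-23 raised 5 receptors (*Axl*, *Met*, *Egfr*, *Fgfr2* and *Igf1r*), against 33.4% of all genes, and lowered 2 (*Pdgfra* and *Erbb2*), against 34.4%. The median of the 8 was 0.14, beside -0.02 over all genes, and went to 0.03 without TMM scaling and -0.09 on TPM values. This comparison depended on the scaling, since the median of all genes was -0.13 without TMM scaling and -0.20 in limma on log2(TPM + 1), and the split over all genes went from 4651 higher and 4791 lower to 3580 and 5913, and 2320 and 6878. On TPM values 1 receptor was higher (*Axl*) and 4 were lower. With 1.5-fold added, *Axl* was higher (9.10% of all genes) and *Pdgfra* lower (16.9%), and both kept their calls under either scaling and at a coefficient of variation of 0.1.

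In WT tumors JSH-23 raised 4 receptors (*Axl*, *Fgfr2*, *Erbb3* and *Igf1r*), against 28.6% of all genes, and lowered 1 (*Erbb2*), against 27.2%. The median was 0.06, beside -0.01 over all genes. No receptor passed 1.5-fold in edgeR (adjusted or unadjusted p), DESeq2 or limma on TPM values (all genes in edgeR, 5.55% higher and 10.2% lower). At a coefficient of variation of 0.1 the call of *Erbb2* alone remained (adjusted p = 0.00377). The response to JSH-23 differed between the genotypes for 5 receptors, more positive in KO tumors for *Axl*, *Erbb2* and *Met* (20.5% of all genes) and more negative for *Erbb3* and *Pdgfra* (17.9%). None of these passed 1.5-fold in edgeR or DESeq2, with 3.30% of all genes more positive and 5.76% more negative, and 1 did, more negative, in edgeR without TMM scaling and in limma on TPM values. The split over all genes was 2851 and 2495, 1854 and 3750 without TMM scaling, and 1040 and 4536 in limma on log2(TPM + 1). Both treatment comparisons and both genotype comparisons share samples, and at a coefficient of variation of 0.1 no interaction was called, *Axl* reaching an adjusted p of 0.106 and *Pdgfra* 0.0948.

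**Figure D4:**
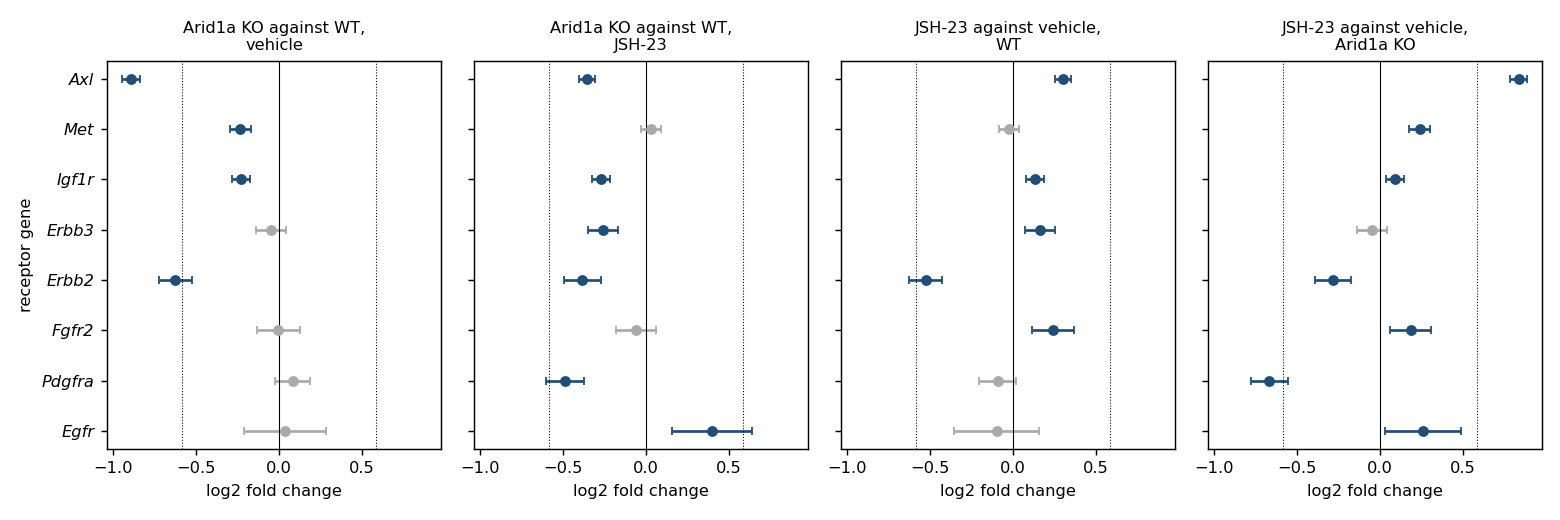
Log2 fold changes (points) with 95% intervals (bars) of the 8 receptors in the 4 comparisons, dark where the adjusted p was under 0.05 and gray otherwise, with dotted lines at 1.5-fold. *Axl* reached -0.89 between the genotypes with vehicle and 0.84 with JSH-23 in KO tumors, and in the latter comparison the direction of *Igf1r* and *Fgfr2* turned on TPM values.

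Of 13 other receptors of these families, 7 passed the low-count filter. With vehicle 3 of the 7 were lower in KO tumors (25.5% of all genes) and 0 higher (25.0%), and with JSH-23 5 were lower (23.8%) and 0 higher (23.2%). The 3 lower with vehicle included *Csf1r*, which passed the filter only through WT samples, so its call carries no weight here. *Mertk*, the TAM relative of *Axl*, read 36.5 and 35.3 CPM in WT tumors and 25.0 and 25.7 in KO tumors with vehicle, and 50.0 and 48.5 in WT tumors and 42.1 and 41.6 in KO tumors with JSH-23. Its order of groups was that of *Axl*, except that KO tumors with JSH-23 stood above WT tumors with vehicle. It was 29.4% lower in KO tumors with vehicle (adjusted p = 7.33e-09), and JSH-23 raised it 1.65-fold in KO tumors (adjusted p = 1.93e-15) and 1.37-fold in WT tumors (adjusted p = 5.29e-09). The third TAM receptor, *Tyro3*, had 7.39 to 12.3 CPM.

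Ligand genes moved as follows. Of 11 EGF family ligands, 5 passed the filter, and in KO tumors with vehicle 2 of them were higher (25.0% of all genes) and 0 lower (25.5%). *Btc* read 30.6 and 32.6 CPM in WT tumors and 44.0 and 43.5 in KO tumors with vehicle, and 24.2 and 21.2 in WT tumors and 37.0 and 34.3 in KO tumors with JSH-23. It was 38.5% higher in KO tumors with vehicle (adjusted p = 2.34e-08) and 56.6% higher with JSH-23 (adjusted p = 2.89e-11), and JSH-23 lowered it in both genotypes. *Hbegf* rose by 35.5% in KO tumors with vehicle. *Tgfa*, at 22.4 and 21.2 CPM in WT tumors and 22.9 and 24.4 in KO tumors with vehicle, fell to 14.6 and 14.3 and to 12.5 and 12.7 with JSH-23, by 33.8% and 46.7%. *Egf* went the other way, from 2.14 and 2.35 to 3.18 and 4.07 CPM in WT tumors and from 1.49 and 1.45 to 2.59 and 3.12 in KO tumors (adjusted p = 0.0169 and 0.00137), the first of which was lost in DESeq2 (0.0951). *Nrg4* passed no test, its difference in KO tumors with vehicle being 1.08 on the log2 scale (adjusted p = 0.0514).

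Of the 11 FGF ligands 5 passed the filter. *Fgf7* read 25.9 and 24.9 CPM in WT tumors with vehicle and 16.0 to 19.3 CPM in the other 6 samples, so that KO and JSH-23 in WT tumors each lowered it by a like amount, 33.4% and 33.6%. *Fgf1* was 24.1% lower in KO tumors with vehicle and 31.0% lower with JSH-23. *Fgf2* and *Fgf11* passed no test, and *Fgf22* rose in KO tumors with JSH-23 (adjusted p = 0.0399 against vehicle, 0.158 in DESeq2). Both PDGF ligands that passed, *Pdgfb* and *Pdgfc*, fell with JSH-23 in both genotypes, against 27.2% of all genes in WT and 34.4% in KO tumors. *Pdgfb* had few counts, with means of 1.83 CPM with vehicle and 0.581 with JSH-23 in WT tumors, and 1.87 and 0.489 in KO tumors. *Pdgfc*, a ligand of PDGFRA, went from 20.7 and 21.1 to 15.7 and 16.4 CPM in WT tumors and from 21.9 and 20.1 to 10.9 and 11.0 CPM in KO tumors, the same group in which *Pdgfra* was lowest. The fall was 23.3% in WT tumors and 47.8% in KO tumors, with an interaction of -0.55 (adjusted p = 0.000689). *Gas6* passed no test.

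In the HGF list 4 of 7 genes passed the filter, and *Mst1*, the ligand of a relative of MET, rose from 0.653 and 0.941 CPM to 3.04 and 4.50 in KO tumors with vehicle. *Spint1*, an inhibitor of the proteases that activate HGF, rose with JSH-23 by 61.5% in KO tumors and by 42.3% in WT tumors. Its interaction was not called (0.18, adjusted p = 0.534 in edgeR). In the IGF list 4 of 9 passed, and 2 binding proteins that hold IGF were higher in KO tumors with vehicle, *Igfbp5* from 10.5 and 10.2 to 33.8 and 39.3 CPM and *Igfbp4* from 1.90 and 1.59 to 5.14 and 5.57 CPM. JSH-23 lowered both in KO tumors, *Igfbp5* by 43.4% and *Igfbp4* by 59.6%. All 3 sheddases, the membrane proteases that release EGF family ligands, passed the filter. In KO tumors JSH-23 raised all 3 (33.4% of all genes), none by 1.5-fold, but without TMM scaling 1 was higher, and on TPM values 1 was higher and 1 lower.

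Below the receptors, all 30 adaptors and relay genes passed the filter, and in KO tumors with vehicle 11 were higher (25.0% of all genes) and 10 lower (25.5%). Only *Gab1*, a docking protein that carries the signal of MET and EGFR, changed by 1.5-fold, from 16.7 and 18.6 CPM in WT tumors to 9.72 and 8.48 in KO tumors, and it was also lower with JSH-23 (18.7 and 18.7 against 10.6 and 9.45). JSH-23 raised 10 and lowered 11 of the 30 in KO tumors, close to the 33.4% and 34.4% of all genes, and raised 14 (28.6% of all genes) and lowered 6 (27.2%) in WT tumors, none by 1.5-fold in edgeR. The count in KO tumors went to 8 higher and 17 lower without TMM scaling and to 1 and 17 on TPM values. Of the 15 inhibitors of receptors, 12 passed the filter. *Errfi1*, a feedback inhibitor that binds the EGFR kinase, read 427 and 414 CPM in WT tumors and 268 and 264 in KO tumors with vehicle, and 452 and 456 in WT tumors and 484 and 481 in KO tumors with JSH-23. Like *Axl* and *Met*, it was lowest in KO tumors with vehicle, by 36.9% (adjusted p = 3.84e-37), and JSH-23 raised it 1.82-fold in KO tumors. *Lrig2* rose with JSH-23 by 59.1% in WT tumors and 73.7% in KO tumors, and *Ptprj*, a receptor tyrosine phosphatase, fell by 35.7% in KO tumors.

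The output genes of ERK, which rise when receptors signal through RAS, mostly fell with JSH-23. Of 13 such genes 10 passed the filter. In KO tumors with vehicle 7 were higher (25.0% of all genes) and 0 lower (25.5%), with a median log2 fold change of 0.26 beside 0.00 over all genes, while 4 of 8 receptors were lower. *Egr1*, an immediate early transcription factor, went from 4.93 and 5.47 CPM in WT tumors to 23.3 and 26.3 in KO tumors, *Dusp4*, a phosphatase of ERK, rose by 56.2%, and *Spry4*, a feedback inhibitor also counted among the inhibitors, by 51.3% (adjusted p = 0.015, 0.13 in DESeq2). With JSH-23, 9 of the 10 were lower and 1 higher in WT tumors, against 27.2% and 28.6% of all genes (median -1.04), and 8 were lower and 2 higher in KO tumors, against 34.4% and 33.4% (median -0.67; on TPM values, 9 and 1). *Fosl1*, an AP-1 subunit, fell from 204 and 206 to 81.5 and 80.2 CPM in WT tumors and from 206 and 210 to 93.0 and 89.9 CPM in KO tumors. Cyclin D1 (*Ccnd1*) fell from 245 and 243 to 120 and 112 CPM and from 287 and 278 to 139 and 135 CPM. *Spry4* fell by 59.2% in WT and 48.9% in KO tumors, and *Egr1* by 74.7% and 67.2%. Between the genotypes with JSH-23 all 10 were higher in KO tumors, against 23.2% of all genes, 3 of them by 1.5-fold (*Egr1*, *Spry4* and *Etv5*), and on TPM values 7 of the 10 were higher and 0 lower.

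**Figure D5:**
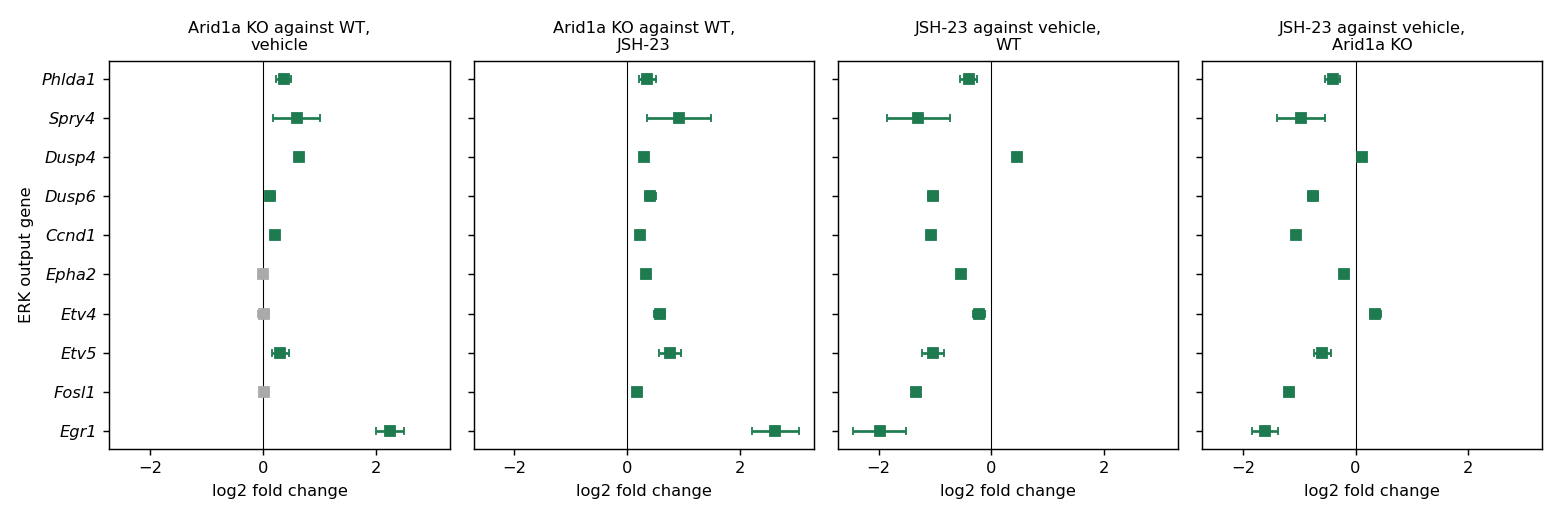
Log2 fold changes (squares) with 95% intervals (bars) of the 10 ERK output genes tested in the 4 comparisons, green where the adjusted p was under 0.05 and gray otherwise. With JSH-23, 9 of 10 lay below 0 in WT tumors and 8 of 10 in KO tumors, and in KO against WT tumors with JSH-23 all 10 lay above 0, of which 7 were called on TPM values.

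For each receptor tested, the genes most like it in log2 CPM over the 8 samples were sought among the 9193 or 9194 genes that averaged 10 CPM or more. The samples of a group lay close together, so these correlations rest on little more than 4 group means, and samples share their libraries and scaling. The likest gene to *Axl* was *Cad*, a pyrimidine synthesis enzyme (Pearson r = 0.999), followed by *Hsd17b11* (0.997). *Erbb2* was closest to *Lars2*, the mitochondrial leucyl-tRNA synthetase (0.999), and to *Wnt5a* (0.998). For *Pdgfra* these were *Mex3c* (0.995) and the glutamine transporter *Slc1a5* (0.991), and for *Igf1r* *Mib1* (0.996) and *Zfp169* (0.995). *Met* was most like *Aifm1* (0.982) and *Psma2* (0.981), *Egfr* most like *Zcrb1* (0.989) and *Ugp2* (0.985), *Erbb3* most like *Adck1* (0.984) and *Lasp1* (0.971), and *Fgfr2* most like *Vps36* (0.963) and *Nck2* (0.960). Among the receptors themselves, *Axl* ran with *Igf1r* (r = 0.881) and *Met* (0.880), and *Pdgfra* ran against *Egfr* (-0.808).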

How the data were processed

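RNA-seq counts of 8 samples in 4 groups were used. The authors deposited counts of reads per gene, which are whole numbers without normalization, and TPM values. According to the study's methods, TopHat2 aligned the reads to GRCm38/mm10 with only best matches kept, and HTSeq-count assigned them to genes by strand, whereas the submitters' processing notes name HISAT2, HTSeq, DESeq2 and mm10. The authors' step from counts to TPM is not described in the sources used here, and each deposited TPM equals the count over the deposited gene length, rescaled per sample. Where genes are near-identical, best matches can fall on either.

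Genes were filtered with filterByExpr (13921 of 39089 kept, holding at least 99.9% of each sample's counts) and scaled by TMM (factors 0.949 to 1.03). All 8 samples entered 1 quasi-likelihood model in edgeR 4.0.16 (R 4.3.3) with a mean for each group, giving 5 comparisons with Benjamini-Hochberg adjusted p under 0.05 over all genes tested. The study's threshold of 1.5-fold was added. Levels were compared between genes as TPM only. The columns of a pooled TPM table repeat the same samples and were not used. The counts of the 2 samples of a group differed by more than sampling noise (chi-square per degree of freedom 1.46 to 1.57), so each was kept. On simulated data for the genotypes with vehicle (13557 genes), the test recovered 75.8% of genes changed 1.5-fold and 86.7% of those changed 2-fold, with 9 false calls.

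The receptors and the lists of ligands, adaptors, inhibitors, output genes and markers were chosen with earlier results of these data known. Named were all receptors, *Arid1a*, the cognate ligands that passed the filter, the list members with a 1.5-fold call (at most 4 per list and comparison, mean of at least 1 CPM over the 8 samples), and the 2 genes most like each receptor. Further genes that describe a family, a list or a marker check (*Tyro3*, *Krt8*, *Fap*, *Ptprc*, *Cd68*, *Adgre1*, *Itgam*, *Csf1r* and ligands under the filter) were added after their values were seen. Some genes of the lists are not reported here by name. Alternatives were DESeq2 1.42.0, limma 3.58.1 on log2(TPM + 1) and log2(TPM + 0.1), no TMM scaling, 2 other low-count filters, the replicate number as a block, only the groups compared, coefficients of variation of 0.1 and 0.2 for every gene, and leaving out each sample.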

Additional observations from a re-analysis of the deposited data

Results flagged for a closer look

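By the interaction test in edgeR over 13921 genes, WT and KO tumors differed in their response to JSH-23 for 5 receptors and, among other genes of the lists, for the 4 given here. The differences of the responses, KO minus WT on the log2 scale, were 0.54 for *Axl*, 0.26 for *Met*, 0.24 for *Erbb2*, -0.21 for *Erbb3* and -0.58 for *Pdgfra*. Among the lists they were 0.75 for *Errfi1* (adjusted p = 4.32e-32), 0.76 for *Fgf7* (adjusted p = 1.17e-06), -0.67 for the decoy receptor *Fgfrl1* (adjusted p = 0.000916) and -0.59 for *Ptprj* (adjusted p = 7.11e-05). *Fgfrl1* rose by 41.0% with JSH-23 in WT tumors, to 12.6 and 14.3 CPM, and its change in KO tumors was -0.17 (adjusted p = 0.202).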

How the results depend on the processing

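*Fgfr1*, *Pdgfrb* and, apart from *Gas6*, the ligands with at most 11 counts did not pass the filter at this depth and were not compared between groups. Of the single receptor values, 609 kept their direction and call under an alternative, 74 lost the call, 8 gained it and 21 reversed. Without TMM scaling the reversed log2 values were 0.025 for *Fgfr2* between genotypes with vehicle, -0.020 for *Igf1r* with JSH-23 in KO tumors and -0.046 for *Met* between genotypes with JSH-23. In limma on log2(TPM + 1) and log2(TPM + 0.1) they were, in the same order, 0.0019 and 0.0019, -0.140 and -0.144, and -0.157 and -0.159, with *Fgfr2* in KO tumors with JSH-23 at -0.045 and -0.047. With at least 10 counts in every sample *Fgfr2* between genotypes with vehicle was 0.010. Leaving out 1 sample reversed only values that were not called: between genotypes with vehicle *Egfr* ranged from -0.027 to 0.108 and *Fgfr2* from -0.071 to 0.063, *Erbb3* with JSH-23 in KO tumors from -0.096 to 0.036, *Met* from -0.055 to 0.020 with JSH-23 in WT tumors and from -0.0057 to 0.070 between genotypes with JSH-23, and the interaction of *Fgfr2* from -0.122 to 0.014. DESeq2 called 3 receptors higher with JSH-23 in KO tumors, 0 higher between genotypes with JSH-23, and 1 lower interaction. Without TMM scaling 2 were higher with JSH-23 in KO tumors. Either limma fit gave 1 higher and 4 lower there, 0 higher between genotypes with JSH-23 and 1 higher interaction. A coefficient of variation of 0.1 left 2 lower between genotypes with vehicle, 1 higher and 1 lower with JSH-23 in KO tumors, 0 higher in WT tumors, 0 higher and 1 lower between genotypes with JSH-23, and 0 interactions either way. A coefficient of 0.2 left *Axl* alone, as 1 lower between genotypes with vehicle and 1 higher with JSH-23 in KO tumors, and 0 elsewhere. Adding 1.5-fold, with adjusted or unadjusted p, left 2 lower between genotypes with vehicle, 1 higher and 1 lower with JSH-23 in KO tumors and 0 elsewhere. Leaving out the first KO sample with JSH-23 left 1 lower interaction, and over the samples left out that count was 1 to 2. The cause of these changes was not tested. Deviations of samples with the same replicate number correlated at -0.00723 to 0.0263 over 9194 genes, so the numbers gave no sign of pairing, and the replicate block left the count of receptors lower between genotypes with vehicle at 4 and changed no receptor call.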

Other observations

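*Krt19*, a keratin of simple epithelium, read 41.0 and 36.7 CPM in WT tumors and 104 and 102 in KO tumors with vehicle, and 11.6 and 13.9 in WT tumors and 79.7 and 82.9 in KO tumors with JSH-23. *Notch3*, a pericyte marker that tumor cells can also express, read 26.4 and 23.1 CPM in WT tumors and 14.9 and 15.0 in KO tumors with vehicle, and 12.5 and 13.1 in WT tumors and 8.38 and 6.24 in KO tumors with JSH-23. Like *Erbb2*, it was highest in WT tumors with vehicle and lowest in KO tumors with JSH-23. These genes were chosen after their values were seen.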
